A study of Saccharomyces cerevisiae with 18 samples.

Results

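The comparison described here sets the heavy polyribosome fraction of R28P-30B yeast against that of the cultures labelled R28P-30A, the strains made to express only the minor or only the major paralog of the ribosomal protein uL30. Its members are the 4 heavy libraries, 2 cultures of each strain, and the 5358 of 7126 genes with a mean of at least 5 CPM over these 4 libraries. CPM states a gene's reads relative to all reads counted in its library, brought to a common sum. The series holds 18 libraries, made from the total extract, the light fraction and the heavy fraction of 2 cultures each of R28P-30B, labelled R28P-30A and wild-type (WT) cells. Heavy fractions were polyribosomes of 4 or more ribosomes and light fractions were subunits and monosomes, and poly(A) RNA was sequenced from each.

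R28P-30B cells carry the cDNA of RPL7B (uL30B) on a LEU2 plasmid behind the RPS28A promoter and before the ADH1 terminator, with the chromosomal RPL7A locus replaced by URA3 and the chromosomal RPL7B gene deleted. R28P-30A cells are described with the same deletions and a plasmid with the cDNA of RPL7A (uL30A). WT cells keep both chromosomal genes, and all cells share the BY background with deletions of HIS3, LEU2, LYS2 and URA3. The strains are listed as MATa with single clones of the other mating type, and no clone is given for a culture. Cells were grown at 30 °C to log phase, and the labels name both Yc medium and synthetic minimal medium.

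Many yeast ribosomal proteins are made from a pair of duplicated genes, which differ in promoter, intron and a few codons. uL30 is a protein of the large ribosomal subunit, and RPL7A makes most of it in WT cells. An mRNA that is being read by many ribosomes at once sediments as a heavy polyribosome. The level of an mRNA in that fraction therefore depends on how much of the mRNA the cell holds and on the share of it that sits on many ribosomes, and dividing the heavy level by the total extract level of the same culture sets the first of these aside. CPM is a share of a library, so a fall in the amount of all polyribosomal RNA per cell cannot be seen in it.

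The 2 mRNAs that separate the strains are close to identical in their coding part, which has 735 nt in each gene, 24 mismatches and 96.73% identity, with a longest identical run of 245 nt. The stretch of 60 coding bases that differs most is shown because reads over it tell the paralogs apart. It covers coding bases 46 to 105, counted from the A of the start codon. On the R64 genome it lies at VII:365433-365492 on the minus strand in RPL7A and at XVI:173606-173665 on the plus strand in RPL7B. Capitals mark the 10 positions where the paralogs differ.

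RPL7A: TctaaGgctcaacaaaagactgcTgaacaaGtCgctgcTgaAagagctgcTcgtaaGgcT
RPL7B: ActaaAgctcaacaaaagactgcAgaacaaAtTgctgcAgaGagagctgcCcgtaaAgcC

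The heavy libraries of R28P-30B carried almost only RPL7B mRNA, and those labelled R28P-30A carried mostly RPL7A mRNA. RPL7A (VII:364335-365996) was at 7.045 and 6.042 CPM in R28P-30B heavy libraries, from 152 and 144 reads, against 2816 and 3111 CPM in labelled R28P-30A and 2310 and 2200 CPM in WT heavy libraries. RPL7B (XVI:173152-174702) was at 5427 and 5386 CPM in R28P-30B, against 176.3 and 186.3 CPM in labelled R28P-30A and 222.3 and 233.9 CPM in WT. RPL7A took 0.130% and 0.112% of the summed CPM of the pair in R28P-30B heavy libraries, against 94.1% and 94.4% in labelled R28P-30A and 91.2% and 90.4% in WT. Since reads over the identical run fit both genes and the authors kept every valid position, the low values of one paralog beside a high level of the other are uncertain.

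The libraries labelled R28P-30A go against their label at several loci. URA3, which encodes orotidine-5'-phosphate decarboxylase and replaces RPL7A in both plasmid strains, had 12608 reads in the 2 R28P-30B heavy libraries and 4 reads in the 2 labelled R28P-30A ones, a ratio per library total of 3812 (95% exact interval of counting error 1488 to 13993). WT heavy libraries had 0 reads of URA3. The small nucleolar RNA snR39 lies in the intron of RPL7A (VII:365163-365251) and snR59 in the intron of RPL7B (XVI:173827-173904), so a cDNA plasmid carries neither. snR39 had 0 reads in R28P-30B heavy libraries, against 129 in labelled R28P-30A and 133 in WT, and snR59 had 1 read against 28 and 38. LEU2, the plasmid marker, was at 546.2 and 560.5 CPM in R28P-30B heavy libraries, against 88.18 and 80.63 CPM in labelled R28P-30A and 0 reads in WT. Thus the libraries labelled R28P-30A held RNA of a plasmid marker together with introns of both chromosomal genes and no more than 4 reads of the gene that should stand in for RPL7A. No library held a read of LYS2 or HIS3, with 0 in each of the 18.

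**Figure D1:**
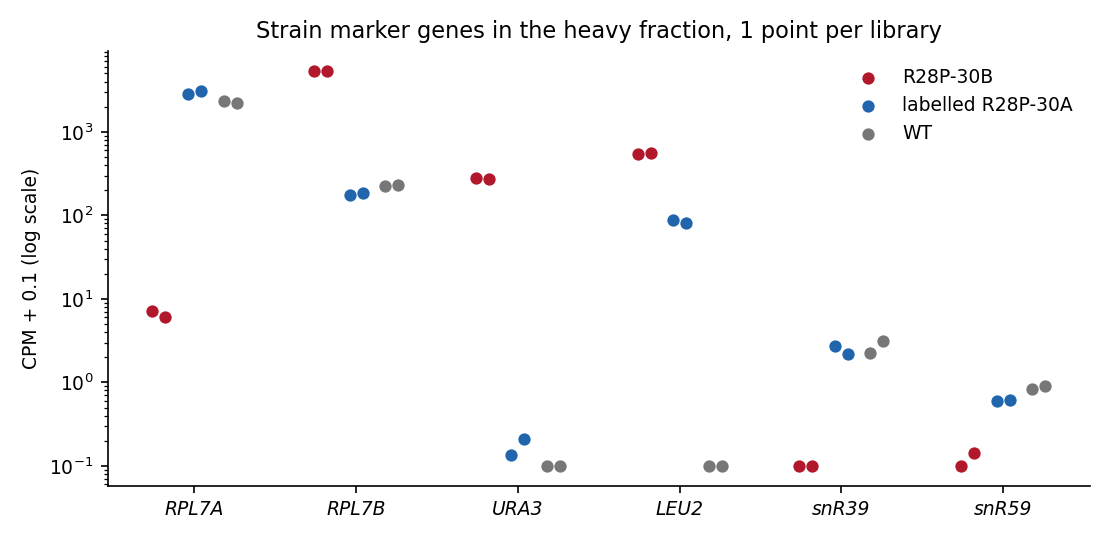
CPM + 0.1 on a log axis for 6 strain marker genes in the 6 heavy libraries, 1 point per library, with R28P-30B, labelled R28P-30A and WT side by side for each gene. The labelled R28P-30A points lie next to the WT points for RPL7A, RPL7B, URA3, snR39 and snR59, and apart from them for LEU2, where they are at 88.18 and 80.63 CPM and WT is at 0.

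The 4 heavy libraries held 21576423 to 27771470 reads and the total extracts of the same cultures 22013633 to 31525927, as recovered from the CPM values. The kept genes took 99.87% to 99.88% of the reads of each heavy library. Cultures of the same strain differed by more than counting error in the heavy fraction and in the total extract. The chi-square per degree of freedom between heavy replicates was 16.0 for R28P-30B, 31.3 for labelled R28P-30A and 11.2 for WT, and the SD of their log2 difference over genes was 0.162, 0.1545 and 0.113. Each strain had 2 biological replicates, so an exact permutation test of a single gene cannot go below a p of 0.33. Differences were therefore tested across all kept genes with limma on log2(CPM + 0.1), R28P-30B minus labelled R28P-30A, with the spread taken from all 6 heavy libraries including WT. A gene was called when its p, adjusted by Benjamini and Hochberg's method over all 5358 genes, was under 0.05.

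In the heavy fraction limma called 438 of 5358 genes, or 8.17%. Of these, 190 (3.55%) were higher and 248 (4.63%) were lower in R28P-30B than in labelled R28P-30A. Most called differences were small, with a median absolute log2 difference of 0.40, and 27 genes were called with a log2 difference beyond 1 in either direction. The split between higher and lower depended on scaling, since the median gene stood at -0.06 on the log2 scale. After centring on the median gene, 276 were called higher and 115 lower. The numbers were 266 and 122 by edgeR on recovered reads, and 324 and 150 by DESeq2. Leaving out labelled R28P-30A culture 1 reduced the calls to 260 and leaving out culture 2 to 281. A total of 146 genes, 86 higher and 60 lower, were called by limma, after centring, by edgeR, by DESeq2 and without each culture in turn.

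**Figure D2:**
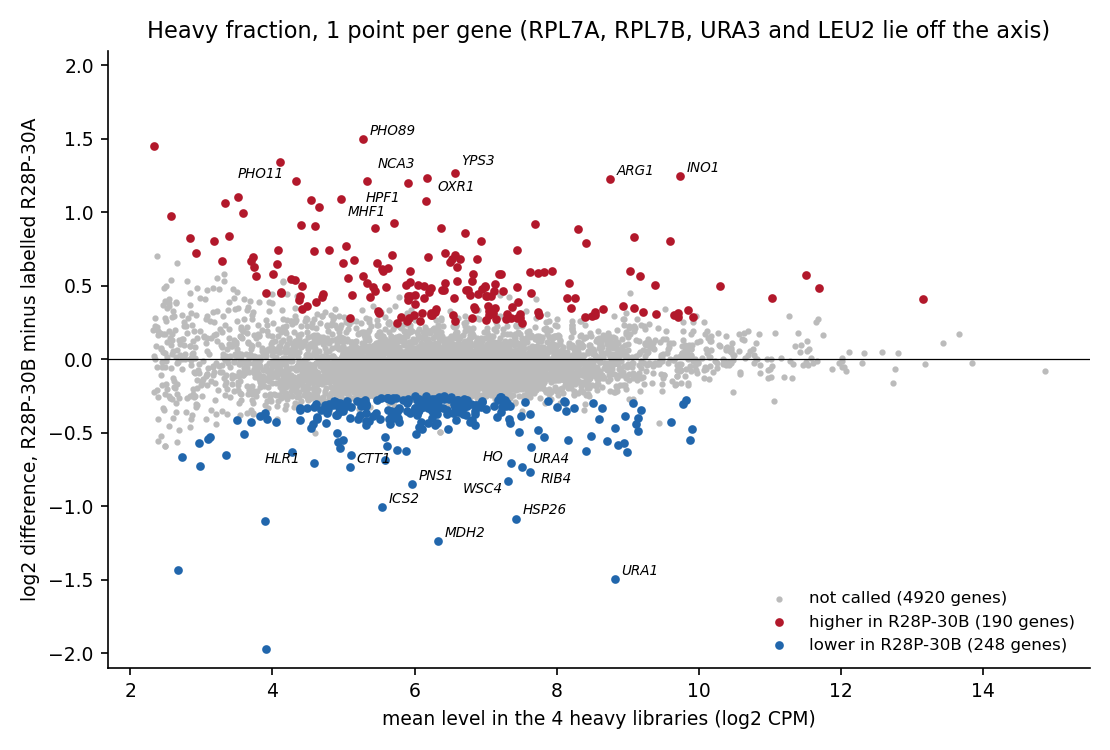
Each point is a gene, with its mean level in the 4 heavy libraries (log2 CPM) on the x axis and the log2 difference, R28P-30B minus labelled R28P-30A, on the y axis. The 190 genes called higher and the 248 called lower are coloured, the largest changes among genes of at least 20 CPM are named, and RPL7A, RPL7B, URA3 and LEU2 fall outside the axis range.

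The same fit over the total extracts of these cultures called 834 genes (15.6%), 347 higher (6.48%) and 487 lower (9.09%). Leaving out R28P-30B culture 1, R28P-30B culture 2 or labelled R28P-30A culture 2 brought this to 532, 385 or 512 genes. Heavy and total extract come from the same cultures, so the values of each are given side by side below and neither is independent of the other. After the heavy level of each culture was divided by its total extract level, limma called 1 gene of 5358 (0.0187%), and 182 genes, 88 higher and 94 lower, had an unadjusted p under 0.05. edgeR on recovered reads called 0 genes for this ratio, with 207 under an unadjusted p of 0.05, and DESeq2 called 2. The median standard error of the ratio was 0.10 on the log2 scale. In simulated data the ratio test recovered 54.55% of genes changed by a log2 of 0.5 and 97.01% of those changed by 1. A shift of the smaller size on or off heavy polyribosomes would therefore often not be detectable here.

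RPL7B was the gene called for the ratio. Its heavy CPM was 1.667 and 1.552 times its total extract CPM in the R28P-30B cultures, against 0.813 and 0.928 times in the cultures labelled R28P-30A and 0.799 and 0.862 times in WT. The ratio was thus above 1 in R28P-30B cultures, where the mRNA is described as coming from the intronless plasmid copy, and below 1 in the other 4. The difference was 0.89 ± 0.09 on the log2 scale, a 1.85-fold higher ratio in R28P-30B (SE, limma adjusted p = 0.00399). The call was lost without R28P-30B culture 1 (adjusted p = 0.0836), without labelled R28P-30A culture 1 (0.126), with a constant prior spread (0.052), after centring (0.0583) and in edgeR (0.143). RPL7B rose by 4.90 ± 0.08 in the heavy fraction (limma adjusted p = 1.32e-13) and by 4.01 in the total extract. Its total extract level was 3255 and 3471 CPM in R28P-30B against 216.9 and 200.8 CPM in labelled R28P-30A. Its light level was 6047 and 6616 CPM in R28P-30B, 473.8 and 514.8 CPM in labelled R28P-30A and 634.5 and 609.1 CPM in WT. In each strain RPL7B was thus at a higher CPM in the light than in the heavy fraction. RPL7A fell by 8.80 ± 0.09 in the heavy fraction (adjusted p = 1.53e-15) and fell by 8.86 in the total extract. Together the pair summed to 5434 and 5392 CPM in R28P-30B heavy libraries, against 2992 and 3297 CPM in labelled R28P-30A and 2532 and 2434 CPM in WT. The gene whose promoter drives the plasmid copy, RPS28A, was chosen after its values were seen. It was at 260 and 291 CPM in R28P-30B heavy libraries against 219 and 288 CPM in labelled R28P-30A, a difference of 0.13 that limma did not call (adjusted p = 0.478).

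MHF1 had the next largest difference in this ratio among the named genes. It encodes a small histone-fold protein of a DNA repair complex. Its heavy level was 40.3 and 45.0 CPM in R28P-30B against 21.6 and 18.5 CPM in labelled R28P-30A, a rise of 1.09 ± 0.10 (limma adjusted p = 3.71e-05), and its total extract level rose by 0.39 (adjusted p = 0.00712). The heavy over total ratio was 0.633 and 0.718 in R28P-30B, against 0.431 and 0.401 in labelled R28P-30A and 0.404 and 0.473 in WT. The log2 difference of the ratio was 0.70 ± 0.12 and was not called (limma adjusted p = 0.248). DESeq2 called it (adjusted p = 0.0413), as did limma with the spread of the 4 compared cultures alone (0.00851). MHF1 (XV:159173-159445, plus strand) ends 102 bases from the end of ADH1 (XV:159548-160594, minus strand), whose terminator is part of the plasmid. In the light fraction MHF1 was at 142 and 153 CPM in R28P-30B against 62.2 and 60.1 CPM in labelled R28P-30A. The part of plasmid-derived reads in these values was not tested, and the strand setting used for counting is not given in the sources used here. ADH1 itself was at 3284 and 2471 CPM against 2673 and 2375 CPM in the heavy fraction and was not called.

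Genes beside the altered loci also differed. These neighbours were chosen for their position after their values were seen, apart from OXR1. OXR1, a conserved gene linked to oxidation resistance, starts 340 bases after RPL7B. It was at 101.8 and 101.7 CPM in R28P-30B heavy libraries against 44.5 and 42.1 CPM in labelled R28P-30A and 43.9 and 45.8 CPM in WT, and rose by 1.23 ± 0.07 (limma adjusted p = 4.26e-07). YPL199C, 396 bases from the other end of RPL7B, was at 213 and 221 CPM against 122 and 138 CPM and rose by 0.74 (adjusted p = 0.000106). On the RPL7A side, MPS2, which encodes a spindle pole body component and lies 928 bases away, was at 26.9 and 26.5 CPM against 43.6 and 40.4 CPM and fell by 0.65 (adjusted p = 0.000239). OXR1 rose by 1.36 and YPL199C by 0.98 in the total extract, where MPS2 fell by 0.51. HNM1, 418 bases from RPL7A, differed by 0.08 in the heavy fraction and was not called. GEA2 and TIM9 beside the natural URA3 locus, at -0.06 and -0.18, and NFS1 and DCC1 beside LEU2, at 0.01 and 0.09, were not called either.

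Of 19 pyrimidine synthesis genes, URA1, URA4 and FUI1 were called lower in R28P-30B (15.8%) and URA3 was called higher (5.26%). The shares over all genes were 4.63% lower and 3.55% higher. Uracil is made from aspartate and carbamoyl phosphate in a chain of steps, and in yeast the activator Ppr1 turns on several of its genes when the intermediates dihydroorotate and orotate build up. URA1, dihydroorotate dehydrogenase, was at 241 and 232 CPM in R28P-30B heavy libraries against 678 and 654 CPM in labelled R28P-30A and 589 and 618 CPM in WT. It fell by 1.49 ± 0.07 (limma adjusted p = 8.84e-08), the largest fall after RPL7A among called genes of at least 20 CPM that moved alike in all pairs of cultures. URA4, dihydroorotase, was at 140 and 133 CPM in R28P-30B against 235 and 220 CPM in labelled R28P-30A and fell by 0.73 (adjusted p = 8.7e-05). The uridine permease gene FUI1 was at 238 and 217 CPM against 298 and 273 CPM and fell by 0.33 (adjusted p = 0.0255). After centring on the median gene 1 gene of the list was called higher and 2 lower, and the call of FUI1 was lost. URA1 fell by 1.42, URA4 by 0.65 and FUI1 by 0.35 in the total extract. The median of the list was -0.11 beside -0.06 over all genes, and the other 15 genes were not called. URA2, which encodes the first enzymes of the chain, was at 436 and 429 CPM against 498 and 488 CPM and was not called (-0.19, adjusted p = 0.125). URA5 and URA10, both orotate phosphoribosyltransferase genes, were at -0.02 and 0.17 and were not called.

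The bases around the Ppr1 core are shown for the called pyrimidine genes, since it is a feature they share that the fit did not use. The core searched was CGGNNNNNNCCG in the 500 bases before the start codon. It reads the same on either strand, was chosen after the values were seen, and was found before 148 of 5294 genes (2.80%). It was present before all 4 called pyrimidine genes, among them the strain marker URA3, which rose, and before 1 of the 15 others, FCY1. CDD1, not called at -0.33, lay as low as FUI1 and had no core. A tie between the core and the calls was not tested. The fixed bases of the core are in capitals and the sequences are from the R64 genome, written along the strand of the gene. URA3 is shown at its natural locus, and whether the inserted marker carries these bases was not examined.

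URA1, XI:24988-25029, plus strand: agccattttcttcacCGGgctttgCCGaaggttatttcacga
URA1, XI:25019-25060, plus strand: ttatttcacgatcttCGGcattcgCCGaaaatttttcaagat
URA3, V:116000-116041, plus strand: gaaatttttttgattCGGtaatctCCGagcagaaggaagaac
URA4, XII:963640-963681, plus strand: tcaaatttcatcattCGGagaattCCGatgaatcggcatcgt
FUI1, II:140585-140626, minus strand: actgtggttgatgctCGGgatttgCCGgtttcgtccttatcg

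The core began 212 and 181 bases before the start codon of URA1, 152 before URA3, 130 before URA4 and 351 before FUI1. A match describes the letters only.

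The leucine branch showed a similar arrangement around the other marker. LEU2, which encodes isopropylmalate dehydrogenase, rose by 2.71 ± 0.10 (limma adjusted p = 3.41e-09), and by 2.89 in the total extract. LEU1, the enzyme before it in the pathway, was at 150 and 167 CPM in R28P-30B heavy libraries against 258 and 223 CPM in labelled R28P-30A and 277 and 314 CPM in WT, and fell by 0.60 (adjusted p = 0.00203). OAC1, a mitochondrial carrier that exports the leucine precursor isopropylmalate, was at 52.7 and 54.8 CPM against 78.2 and 74.4 CPM and fell by 0.51 (adjusted p = 0.00125). Of 13 genes for leucine, isoleucine and valine, 1 was called higher (7.69%) and 2 lower (15.4%), beside 3.55% and 4.63% over all genes. LEU4 and ILV2, which encode earlier enzymes, were at 0.15 and 0.09 and were not called. Over the 83 other amino acid synthesis genes tested, 8 were called higher (9.64%) and 1 lower (1.2%), with a median of 0.06. They included ARG1, argininosuccinate synthetase, at 516 and 689 CPM against 214 and 303 CPM and 143 and 155 CPM in WT, which rose by 1.23 ± 0.15 (adjusted p = 0.000306). ARG3, ornithine carbamoyltransferase, was at 26.0 and 41.8 CPM against 12.2 and 21.0 CPM and rose by 1.04 (adjusted p = 0.0155), a call lost without labelled R28P-30A culture 1. LYS20, homocitrate synthase, rose by 0.58, HIS4 by 0.50 and the carbamoyl phosphate synthetase subunit CPA1 by 0.35. After centring on the median gene 11 were called higher and 0 lower. The 8 higher calls became 3 without R28P-30B culture 2 and 5 without labelled R28P-30A culture 1. The purine list had ADE12 called higher, by 0.52, as its 1 call among 23 (4.35%, beside 3.55% over all genes). Without R28P-30B culture 1 there were 2.

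**Figure D3:**
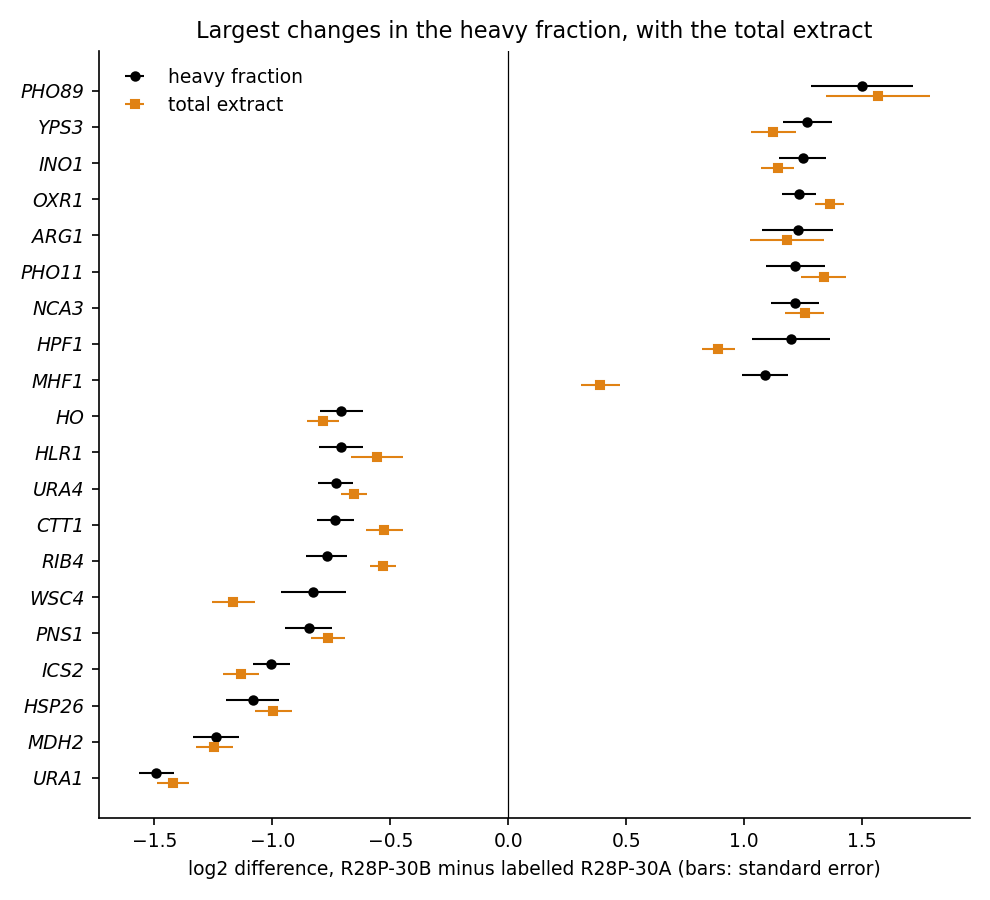
Log2 difference, R28P-30B minus labelled R28P-30A, for the genes with the largest called changes in the heavy fraction, apart from the strain markers. Circles are the heavy fraction and squares the total extract, with bars of 1 standard error from limma. MHF1 lies farthest from its total extract value, at 1.09 in the heavy fraction and 0.39 in the total extract.

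Of 24 phosphate regulon genes, 7 were called higher in R28P-30B, most of them phosphatases, and 0 lower, beside 3.55% higher over all genes. The phosphate regulon is the set of genes that yeast turns on when phosphate is short, through the activator Pho4. The list used here also holds regulators of that set, such as PHO80 and PHO85, and genes outside it, such as PHO3. PHO89, a sodium-phosphate cotransporter, was at 45.2 and 69.4 CPM in R28P-30B heavy libraries against 25.96 and 15.03 CPM in labelled R28P-30A and 23.65 and 23.7 CPM in WT, and rose by 1.498 ± 0.22 (limma adjusted p = 0.00102). The standard error was above the median of 0.08 over all genes. PHO5, the main secreted acid phosphatase, was at 264 and 273 CPM against 170 and 119 CPM and 177.5 and 156 CPM in WT. It rose by 0.92 (limma adjusted p = 0.000912). PHO11, at 24.7 and 32.1 CPM against 11.95 and 12.2 CPM, rose by 1.22 (limma adjusted p = 0.000106). WT heavy libraries held PHO11 at 19.9 and 17.1 CPM, between R28P-30B and labelled R28P-30A. PHO12, PHO3 and the vacuolar phosphatase PHO8 rose by 0.90, 0.89 and 0.45. PHO11 and PHO12 are near-identical copies, as to a lesser extent are PHO5 and PHO3, so the division of reads within each pair is uncertain. PHM8, at 0.36, was the seventh called gene. The list median was 0.16, and it was 0.03 without labelled R28P-30A culture 2 and 0.29 without culture 1. The count of 7 became 5 without culture 2 and 11 without culture 1. In the total extract 9 were called higher and 1 lower. Of the phosphate transporters, PHO89 was called and PHO84 and PHO90 were not. PHO84, the high-affinity transporter, was at 1837 and 1669 CPM against 1768 and 1325 CPM, and the low-affinity PHO90 was at -0.09. SPL2, VTC3 and PHO81 were at 0.28, 0.20 and 0.09 and were not called.

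The Pho4 core CACGTG, which also reads the same on either strand, was searched in the same windows after the values were seen. It was found before 331 of 5294 genes (6.25%), before 13 of the 24 phosphate genes, 4 of the 7 called and 9 of the 17 not called. The called genes with the core are shown with the core in capitals, and the stretches of PHO11 and PHO12 are letter for letter the same.

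PHO5, II:431184-431219, minus strand: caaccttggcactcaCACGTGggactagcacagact
PHO11, I:225162-225197, plus strand: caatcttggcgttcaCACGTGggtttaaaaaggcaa
PHO12, VIII:551801-551836, plus strand: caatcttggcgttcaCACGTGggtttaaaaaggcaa
PHO89, II:798825-798860, minus strand: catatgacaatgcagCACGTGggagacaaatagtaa

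The core thus occurred in about the same share of the called as of the other phosphate genes, and it did not separate them.

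Cell wall genes moved in both directions, 12 of 91 called higher (13.2%) and 7 lower (7.69%), beside 3.55% and 4.63% over all genes. Those called higher included surface proteases and structural proteins. YPS3, a GPI-anchored aspartyl protease, was at 124 and 145 CPM in R28P-30B heavy libraries against 61.6 and 50.2 CPM in labelled R28P-30A and 50.2 and 46.0 CPM in WT, and rose by 1.27 ± 0.10 (limma adjusted p = 1.54e-05). NCA3, a member of the SUN family, was at 53.4 and 59.6 CPM against 23.4 and 25.2 CPM and rose by 1.22 (adjusted p = 2.03e-05). PIR3, an O-glycosylated wall protein, was at 85.0 and 110 CPM against 43.2 and 48.7 CPM and rose by 1.08 (adjusted p = 8.7e-05). The abundant wall proteins HSP150 and SED1 rose by 0.58 and 0.49. Outside the list HPF1, a wall mannoprotein, was at 97.9 and 68.85 CPM against 43.1 and 29.6 CPM and rose by 1.20 (adjusted p = 0.000743).

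Among the cell wall genes called lower were those by which a daughter cell detaches from its mother. In bulk cultures fewer cells at such a stage and less RNA per cell cannot be told apart. DSE1, a daughter cell-specific protein, was at 371 and 376 CPM in R28P-30B heavy libraries against 578 and 540 CPM in labelled R28P-30A and fell by 0.58 (limma adjusted p = 0.000434). The endochitinase CTS1, which digests the septum, was at 825 and 695 CPM against 1217 and 1009 CPM and fell by 0.55 (adjusted p = 0.00701). The glucanase genes SCW11 and DSE2 fell by 0.57 and 0.49, and SUN4 by 0.53. AMN1, a daughter-specific regulator of mitotic exit outside the list, was chosen after its values were seen. It was at 266 and 271 CPM against 433 and 397 CPM and fell by 0.63 (adjusted p = 0.000273). Its neighbour ICS2, a gene of unknown function, was at 30.8 and 31.1 CPM against 58.4 and 66.1 CPM and fell by 1.004 (adjusted p = 1.3e-05). DSE1, CTS1, AMN1 and ICS2 fell by 0.60, 0.62, 0.60 and 1.13 in the total extract. The counts on the cell wall list depended on scaling and on single cultures. They were 17 higher and 5 lower after centring on the median gene. Higher calls were 5 without labelled R28P-30A culture 2 and 7 without R28P-30B culture 1. Lower calls were 13 without R28P-30B culture 1, and 4 without R28P-30B culture 2 or labelled R28P-30A culture 1.

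Of the 27 cell wall integrity genes, which relay wall damage to a MAP kinase cascade, 3 were called higher (11.1%) and 2 lower (7.41%). The shares over all genes were 3.55% and 4.63%, and the lower count depended on labelled R28P-30A culture 1. BAG7, a GTPase-activating protein for Rho1, was at 17.7 and 32.5 CPM in R28P-30B heavy libraries against 9.18 and 9.65 CPM in labelled R28P-30A and 3.77 and 4.36 CPM in WT, and rose by 1.34 (limma adjusted p = 0.00278). For BAG7 the libraries labelled R28P-30A lay between those of R28P-30B and WT. SLT2, the MAP kinase of the pathway, was at 234 and 279 CPM against 174 and 167 CPM and rose by 0.59 (adjusted p = 0.00126), and its paralog KDX1 rose by 0.68. WSC4, of the family of wall sensors, was at 139 and 94.0 CPM against 203 and 202 CPM and fell by 0.83 (adjusted p = 0.00314), and the Rho1 regulator LRG1 fell by 0.36. WSC4 fell by 1.17 in the total extract. HLR1, implicated in wall composition, was at 19.6 and 17.0 CPM against 30.3 and 29.6 CPM and fell by 0.71.

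Stress genes did not move as a block. Of 45 general stress response genes, 6 were called higher (13.3%) and 4 lower (8.89%) in the heavy fraction, beside 3.55% and 4.63% over all genes. In the total extract 14 were called higher and 2 lower, beside 6.48% and 9.09% over all genes. Lower calls in the heavy fraction were 2 without labelled R28P-30A culture 2, and 7 were higher and 2 lower after centring on the median gene. HSP26, a small heat shock protein that holds unfolded proteins, was at 120 and 101.3 CPM in R28P-30B heavy libraries against 206 and 264.5 CPM in labelled R28P-30A and 244 and 224 CPM in WT, and fell by 1.08 ± 0.11 (limma adjusted p = 0.000106). The cytosolic catalase CTT1 was at 26.6 and 24.5 CPM against 42.1 and 43.0 CPM and fell by 0.73 (adjusted p = 0.00012). YGP1, a secreted glycoprotein induced by nutrient limitation, was at 719 and 673 CPM against 406 and 376 CPM and rose by 0.83 (adjusted p = 4.79e-05), as did the repressor XBP1 by 0.62 and the stress activator MSN4 by 0.31. Of 36 cytosolic chaperones, 2 were called higher (5.56%) and 3 lower (8.33%), beside 3.55% and 4.63% over all genes. Without labelled R28P-30A culture 2 these were 1 and 1, without R28P-30B culture 1 they were 3 and 1, and without R28P-30B culture 2 they were 1 and 2. They were 5 and 1 after centring on the median gene. SSA1, an Hsp70, was at 652 and 731 CPM against 456 and 477 CPM and rose by 0.57 (adjusted p = 0.00304), whereas its stress-induced relative SSA4 fell by 0.32 and the co-chaperone SIS1 by 0.28. HSC82, an Hsp90, differed by 0.34 (adjusted p = 0.0416), a call lost under 7 alternatives.

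Of 40 nuclear genes for the respiratory chain and ATP synthase, 13 were called higher in R28P-30B (32.5%) and 1 lower (2.5%). The shares over all genes were 3.55% and 4.63%. The list median was 0.27 beside -0.06 over all genes. NDE1, the external NADH dehydrogenase of mitochondria, was at 399 and 464 CPM in R28P-30B heavy libraries against 262 and 236.5 CPM in labelled R28P-30A and 191 and 204 CPM in WT, and rose by 0.79 ± 0.09 (limma adjusted p = 0.000199). CYC1, cytochrome c, was at 98.9 and 116 CPM against 58.7 and 71.3 CPM and rose by 0.72 (adjusted p = 0.000743). INH1, an inhibitor of ATP hydrolysis by the ATP synthase, rose by 0.52, the complex III subunit QCR8 by 0.46, and the ATP synthase subunit ATP2 by 0.29. COX5B, the hypoxic form of a cytochrome oxidase subunit, fell by 0.36. The count of 13 became 7 without labelled R28P-30A culture 1, where the call of INH1 was also lost, and the 1 lower call was lost without R28P-30B culture 2 or labelled R28P-30A culture 2. After centring on the median gene, 19 were called higher and 0 lower. In the total extract 22 were called higher and 1 lower. None of the 19 genes of the mitochondrial genome reached 5 CPM in these poly(A) libraries.

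In central carbon metabolism 4 of 23 glycolysis and fermentation genes were called higher (17.4%) and 0 lower, beside 3.55% and 4.63% over all genes. ADH4, an alcohol dehydrogenase, was at 977 and 984 CPM in R28P-30B heavy libraries against 581 and 542 CPM in labelled R28P-30A and rose by 0.81 (limma adjusted p = 6.33e-05). ADH5, ENO1 (enolase) and PDC1 (pyruvate decarboxylase) rose by 0.48, 0.42 and 0.41, and the 4 calls became 2 without R28P-30B culture 2, with ENO1 among those lost. The call of ADH5 was lost without labelled R28P-30A culture 1. Of 30 genes for the tricarboxylic acid and glyoxylate cycles, 4 were called higher (13.3%) and 3 lower (10%), and after centring on the median gene 6 and 1. MDH2, the cytosolic malate dehydrogenase used in gluconeogenesis, was at 53.8 and 42.6 CPM against 115 and 112 CPM and 100 and 97.2 CPM in WT, and fell by 1.24 ± 0.10 (adjusted p = 1.19e-05). ACO1, aconitase, was at 290 and 299 CPM against 197 and 192 CPM and rose by 0.60 (adjusted p = 0.000239), and both subunits of isocitrate dehydrogenase, IDH1 and IDH2, rose by 0.30 and 0.28. ICL1, isocitrate lyase, differed by -0.37 (adjusted p = 0.0485), a call lost under 14 alternatives. The 4 and 3 calls on this list became 1 or 2 each when any of the 4 compared cultures was left out. INO1, which makes inositol phosphate for lipid synthesis, was at 1150 and 1254 CPM against 562 and 455 CPM and 718 and 678 CPM in WT, and rose by 1.25 ± 0.10 (adjusted p = 1.33e-05).

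**Figure D4:**
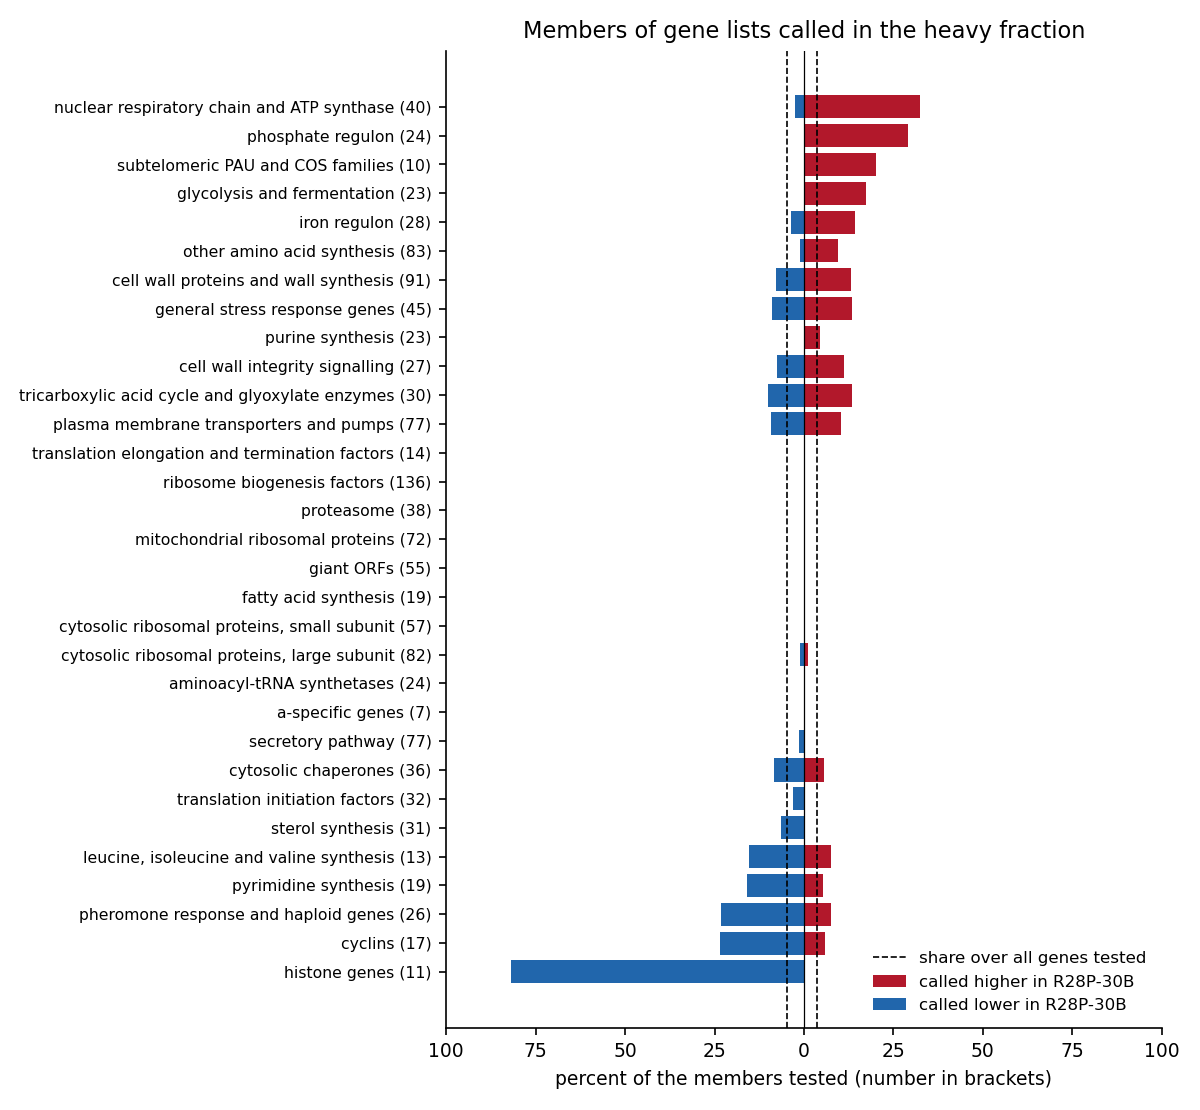
Percent of the tested members of each gene list that were called higher (to the right) or lower (to the left) in R28P-30B heavy libraries, with the number of members tested in brackets and dashed lines at the shares over all genes, 3.55% higher and 4.63% lower. Histone genes have 9 of 11 members called lower, and the respiratory chain 13 of 40 called higher. Lists with fewer than 5 members tested are left out.

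Histone genes gave the largest share of lower calls of any list tested here. The mRNAs of the core histones are made mainly in S phase, when DNA is copied. Of 11 histone genes, 9 were called lower (81.8%, beside 4.63% over all genes) and 0 higher, with a median of -0.44. HTB2, a histone H2B, was at 397 and 401 CPM in R28P-30B heavy libraries against 624 and 610 CPM in labelled R28P-30A and 608 and 698 CPM in WT, and fell by 0.63 ± 0.08 (limma adjusted p = 0.000544). HTA2 (H2A) was at 325 and 354 CPM against 494 and 503 CPM and fell by 0.56 (adjusted p = 0.000997), and HHT1 (H3) fell by 0.55. The other core histone genes HTA1, HTB1, HHT2, HHF1 and HHF2, and the H2A variant HTZ1, fell by 0.37 to 0.48. The histone genes come in near-identical pairs, so the division of reads within a pair is uncertain. The centromeric histone CSE4 was at 55.9 and 62.2 CPM against 54.2 and 60.5 CPM (0.04) and the linker histone HHO1 at -0.26, and neither was called. In the total extract 10 of the 11 were called lower, with a median of -0.29. Between 7 and 9 were called lower in the heavy fraction when any of the 4 compared cultures was left out, and 8 after centring on the median gene.

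Of 17 cyclin genes, 1 was called higher (5.88%) and 4 lower (23.5%), beside 3.55% and 4.63% over all genes. After centring on the median gene 2 were called higher and 2 lower. CLN3, the G1 cyclin that starts the cell cycle, was at 126 and 120 CPM in R28P-30B heavy libraries against 92.3 and 85.0 CPM in labelled R28P-30A and 69.2 and 71.8 CPM in WT, and rose by 0.47 (limma adjusted p = 0.00193). The B-type cyclin CLB4 fell by 0.26 and the Pho85 cyclins PCL6, PCL7 and PCL9 by 0.38, 0.41 and 0.35. Lower calls were 1 to 3 with any of the 4 compared cultures left out. The call of PCL6 was lost without R28P-30B culture 2 or without labelled R28P-30A culture 1, and that of PCL7 without labelled R28P-30A culture 2. The remaining cyclins were not called.

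Genes tied to mating showed a few changes without a change of mating type. Of 7 a-specific genes, 0 were called by limma, and STE2, the receptor for alpha factor, was at 867 and 782 CPM in R28P-30B heavy libraries against 890 and 821.5 CPM in labelled R28P-30A and 924 and 953 CPM in WT. MATALPHA1 and HMLALPHA1 had 0 CPM in all heavy libraries. MF(ALPHA)1, the alpha factor precursor, was at 5.284 and 9.734 CPM against 2.196 and 2.984 CPM and was called at 1.45 (limma adjusted p = 0.0144). It passed the filter of 5 CPM only through the R28P-30B libraries, where it was high. The call was lost without R28P-30B culture 2 or without labelled R28P-30A culture 1. Of the 4 alpha-specific genes 3 were tested, and STE3 and SAG1 were not called. Of the silent and active cassette genes only HMRA1 passed the filter, at 11.7 and 13.4 CPM against 11.9 and 12.6 CPM. Among 26 pheromone response and haploid genes, 2 were called higher (7.69%) and 6 lower (23.1%), beside 3.55% and 4.63% over all genes. The median of the list was -0.18. PRM1, a cell fusion protein, was at 3.52 and 3.27 CPM against 9.18 and 9.54 CPM and 13.0 and 11.0 CPM in WT. It fell by 1.44 (limma adjusted p = 0.000133), and passed the filter of 5 CPM only through the labelled R28P-30A libraries, where it was high. HO, the gene of the mating-type switching endonuclease, was at 131 and 118 CPM against 222 and 187 CPM and fell by 0.71 (adjusted p = 0.000434). FUS1, another fusion protein, fell by 0.60 and the pheromone-response activator STE12 by 0.32, while PRM10 rose by 0.70. Without labelled R28P-30A culture 2, 1 was called higher. After centring on the median gene 2 were called higher and 3 lower. The 6 lower calls also became 3 without R28P-30B culture 2 or without labelled R28P-30A culture 1.

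Of 77 plasma membrane transporters and pumps, 8 were called higher (10.4%) and 7 lower (9.09%), beside 3.55% and 4.63% over all genes. The hexose transporter genes HXT2, HXT4 and HXT6 stood out among the higher ones. HXT2 was at 122.7 and 147 CPM in R28P-30B heavy libraries against 83.1 and 65.6 CPM in labelled R28P-30A and rose by 0.86 (limma adjusted p = 0.000743). HXT4 rose by 0.68 and HXT6, at 10.5 and 17.2 CPM against 5.62 and 7.22 CPM, by 1.06 (adjusted p = 0.0123). The call of HXT6 was lost without R28P-30B culture 2 or without labelled R28P-30A culture 1, and it shares reads with its near-identical copy HXT7, which rose by 0.45. Those called lower included the general amino acid permease GAP1, by 0.42, the oligopeptide transporter OPT2, by 0.53, and the zinc transporter ZRT2, by 0.32. After centring on the median gene 12 were called higher and 2 lower, and without labelled R28P-30A culture 2 lower calls were 3.

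Of 28 iron regulon genes, 4 were called higher (14.3%) and 1 lower (3.57%), beside 3.55% and 4.63% over all genes. HMX1, heme oxygenase, was at 33.5 and 29.8 CPM in R28P-30B heavy libraries against 15.2 and 14.5 CPM in labelled R28P-30A and 15.6 and 14.4 CPM in WT, and rose by 1.08 ± 0.10 (limma adjusted p = 4.49e-05). The siderophore transporter SIT1 rose by 0.53, the wall mannoprotein FIT2 by 0.67 and the ferric reductase FRE1 by 0.40. The low-affinity transporter FET4 fell by 0.42. The 4 higher calls became 1 without labelled R28P-30A culture 2 and 2 without R28P-30B culture 1, and SIT1 and FIT2 were lost in both cases. The lower call was lost without labelled R28P-30A culture 1. Of 31 sterol synthesis genes, 0 were called higher and 2 lower (6.45%, beside 4.63% over all genes). These were the regulators ECM22 (-0.53) and UPC2 (-0.28, lost under 10 alternatives). Without R28P-30B culture 1 there were 4 lower sterol calls, and 1 without each of the other 3 compared cultures. RIB4, lumazine synthase of riboflavin synthesis, was at 148 and 144 CPM against 229 and 271 CPM and fell by 0.77 (adjusted p = 0.000162). PNS1, a membrane protein of the choline transporter-like family, was at 45.0 and 43.8 CPM against 90.0 and 70.8 CPM and fell by 0.85 (adjusted p = 0.000239).

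The rest of the translation machinery showed few differences. Of 82 genes matched by name as large subunit ribosomal proteins, among them RPP1, which encodes a subunit of RNase P instead, RPL7B was called higher and RPL7A lower and no other member was called by limma. Of 57 small subunit genes 0 were called. Likewise 0 were called of 72 genes matched by name as mitochondrial ribosomal proteins, 14 elongation and termination factors, 136 ribosome biogenesis factors and 24 aminoacyl-tRNA synthetases. Over all genes 8.17% were called, and on the lists of 14 and 24 genes a count of 0 does not stand out from that share. The most abundant gene matched by name as mitochondrial ribosomal protein, MRP8, is not an established one and was at -0.14. The most abundant members of the other 3 lists, TEF2, NOP1 and KRS1, were at -0.03, -0.03 and 0.19. Of 32 initiation factors, SUI2, a subunit of eIF2, was called lower by 0.28 (adjusted p = 0.0343), a call lost under 10 alternatives. Centring on the median gene gave 2 higher calls among large subunit proteins, 2 among ribosome biogenesis factors, 1 among small subunit proteins and 1 among elongation and termination factors. Leaving out labelled R28P-30A culture 2 gave 3 higher calls among large subunit proteins, and leaving out culture 1 gave 2 among elongation and termination factors. DESeq2 called KRS1.

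Several other lists, apart from that of the subtelomeric PAU and COS genes, held few calls beside 8.17% called over all genes. On the shortest of them a count of 0 does not stand out from that share. No member was called of the 38 proteasome genes, whose most abundant member PRE2 was at -0.08, or of the 19 fatty acid synthesis genes, whose most abundant member FAS2 was at 0.18, and DESeq2 called FAS2. Of 77 secretory pathway genes, SIL1, the exchange factor of an ER chaperone, was called lower by 0.35 (limma adjusted p = 0.0116), a call lost without either culture labelled R28P-30A. Without R28P-30B culture 2, 3 secretory genes were called lower. Among 10 genes matched by name as subtelomeric PAU and COS genes, COS1 rose by 0.77 and COS111 by 0.58. Members of the COS family share sequence, so the value of COS1 is uncertain. COS111, at II:629168-631942, is not an established member of that family. Of these 10 genes, 2 were thus called higher (20%, beside 3.55% over all genes). Without R28P-30B culture 1, 4 of them were called higher. None of 55 giant ORFs was called, and YEF3 was at 3404 and 3746 CPM in R28P-30B heavy libraries against 3051 and 2862 CPM in labelled R28P-30A (0.27, adjusted p = 0.0667). DESeq2 and limma without labelled R28P-30A culture 1 called YEF3.

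The remaining called genes beyond a log2 difference of 1 had fewer than 20 CPM and were chosen after their values were seen. GAC1, which targets a phosphatase to glycogen synthase, was at 12.9 and 18.6 CPM in R28P-30B heavy libraries against 7.63 and 6.67 CPM in labelled R28P-30A and 3.87 and 3.49 CPM in WT, and rose by 1.11 (limma adjusted p = 0.00319). YBL029W was at 9.69 and 9.11 CPM against 21.7 and 18.9 CPM and fell by 1.10 (adjusted p = 6.76e-05). RDN5-1, a 5S ribosomal RNA gene, was at 3.24 and 7.64 CPM against 9.90 and 39.7 CPM, a difference of -1.97 (adjusted p = 0.034) in which labelled R28P-30A culture 2 lay far above the other 3 libraries.

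Differences by coding length depended on which culture labelled R28P-30A was used. Over 5299 genes with a coding length, the median log2 difference in the heavy fraction was 0.01 for genes under 500 nt and -0.07 for those of 4000 nt and over. Shortest minus longest class thus came to 0.08. Between single cultures this difference was 0.16 and 0.20 for R28P-30B cultures 1 and 2 against labelled R28P-30A culture 1, and -0.03 and 0.00 against culture 2. The pairs with culture 1 therefore showed short mRNAs relatively higher in R28P-30B and those with culture 2 did not. In the heavy over total ratio it was 0.14 and 0.22 against culture 1, and -0.12 and -0.04 against culture 2. The heavy libraries labelled R28P-30A, culture 1 minus culture 2, differed from each other by -0.18 between the same length classes, more than the strain means did. No chromosome stood apart, with median heavy differences from -0.07 on chromosome VI to -0.01 on chromosome I.

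**Figure D5:**
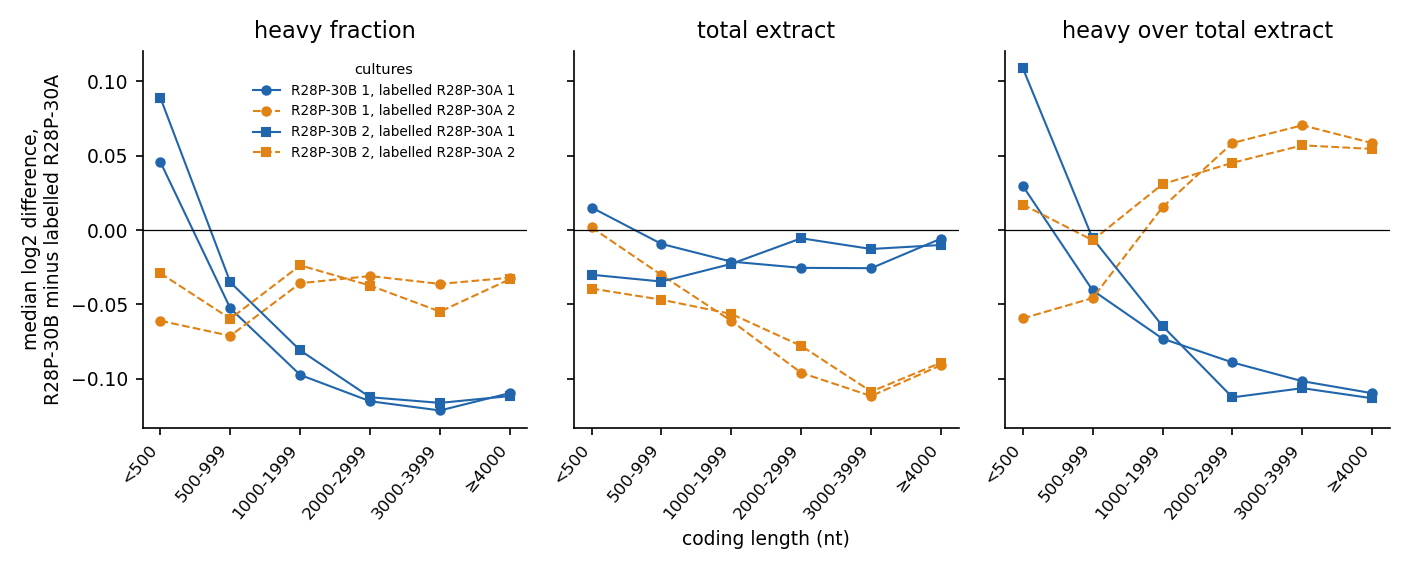
Median log2 difference, R28P-30B minus labelled R28P-30A, by class of coding length (nt) for each of the 4 pairs of cultures, in the heavy fraction, the total extract and their ratio. Lines for labelled R28P-30A culture 1 (solid) run downward with length in the heavy fraction and the ratio, and lines for culture 2 (dashed) do not.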

How the data were processed

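The authors selected poly(A) RNA, prepared directional libraries, aligned to R64 with STAR, kept all valid positions and counted with featureCounts. They deposited CPM for 7126 genes in 18 libraries, and all 18 columns were matched to samples. The deposited TPM were not used. Within a tolerance of 0.05, 100% of CPM values were whole reads. Libraries held 17373839 to 31525927 reads (median 26575904). Sequences and annotation were from the R64 reference.

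limma (version 3.58.1, R 4.3.3, trend) was fitted to log2(CPM + 0.1), and to log2((heavy CPM + 0.1)/(total extract CPM + 0.1)) per culture. Fold changes are on this scale and understate those of low genes. Limits and p-values cover only 2 cultures per strain. Alternatives were other pseudocounts, filters, thresholds and scalings, no trend, no WT, a replicate block, edgeR 4.0.16 and DESeq2 1.42.0 on recovered reads, and leaving out each culture. On simulated data, the heavy test recovered 68.18% of genes changed by a log2 of 0.5, 97.01% at 1, and called 0.233% of unchanged genes. The simulated spread was independent between genes, whereas cultures labelled R28P-30A differed from each other along coding length. Rates from the simulations may therefore not hold for these cultures.

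Members, gene lists and tests were chosen with earlier results of these data known. Named genes were the strain markers, the 12 largest increases and decreases among called genes of at least 20 CPM that moved alike in all 4 pairs of cultures, the 8 largest of each for the ratio (where only RPL7B qualified), and up to 3 called members of each list or its most abundant member. The most abundant member of 1 list is not reported here.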

Additional observations from a re-analysis of the deposited data

Results flagged for a closer look

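For RPL7B the strain difference was not the same in the heavy fraction as in the total extract of the same cultures. The difference between them was 0.89 on the log2 scale, by the limma test of the heavy over total ratio (adjusted p = 0.00399), and the ratio was higher in each of the 2 R28P-30B cultures than in each of the 2 labelled R28P-30A cultures.

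LEU2 reads were present in light libraries, which enter none of the tests above. The 2 light libraries labelled R28P-30A held 3407 LEU2 reads, against 4 reads in the 2 WT light libraries, and 40686 in the 2 R28P-30B ones.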

How the results depend on the processing

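Of 20 alternatives for each comparison, 15 left the count of heavy calls within 1.5 times of 438, 15 that of the total extract calls within 1.5 times of 834, and 10 that of the ratio calls at 1. The heavy count was 165 at an adjusted p under 0.01 and 134 at an adjusted p under 0.05 with a log2 difference over 0.5, and 260 to 464 with each culture left out in turn. The total extract count was 358, 141 and 385 to 844 under the same changes. For the ratio, 2 genes were called with no filter, without WT in the spread and by DESeq2, 0 with no trend, after centring and by edgeR, and 0 to 2 with a culture left out. The cause of these shifts was not tested. Phosphate genes called higher were 5 to 11 and respiratory chain genes 7 to 13 with a culture left out. Shortest minus longest coding length came to 0.20 in the heavy fraction for R28P-30B culture 2 with labelled R28P-30A culture 1. In the total extract it was 0.0926 for culture 1 with labelled culture 2 and -0.02 for culture 2 with labelled culture 1, where it was 0.04 over the means. In the ratio the same pairs gave -0.12 and 0.22.

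The labels give the strains shared replicate numbers. With the number as a replicate block, limma called 720 genes in the heavy fraction (291 higher, 429 lower), 1184 in the total extract and 1 in the ratio. Differences between replicates correlated across genes, which are not independent, at 0.24 between R28P-30B and labelled R28P-30A, 0.35 between R28P-30B and WT and -0.07 between labelled R28P-30A and WT in the heavy fraction, and at 0.19, 0.20 and 0.14 in the total extract. With 2 cultures a strain and no label that ties a number to a shared batch or day, the numbers were not taken to pair the cultures.

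Of 75 named genes, 65 were called in the heavy fraction. Over the alternatives 1101 of their 1162 values kept their call and direction, 61 values of 15 genes were no longer called, and 0 changed direction. With 2 cultures a strain, log2 differences of 0.5 or less were often not detectable.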
